A study of Mus musculus with 6 samples.

Results

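The genes of the major histocompatibility complex (MHC) and of antigen presentation were followed in whole retina of rd10 mice and of wild type (WT) C57Bl6/J mice at postnatal day 30. Members were all rows of the count table whose symbol begins with H2-, plus B2m, Tap1, Tap2, Tapbp, Cd74 and Ciita. This gave 50 of 24062 genes: 32 class I heavy chain genes, 10 class II genes, 4 genes of the class I light chain and peptide loading, 2 class II accessory genes and 2 genes that carry an H2- name without encoding an MHC molecule. The label does not cover these last: they are H2-Ke2, named Pfdn6 in GENCODE, a subunit of the prefoldin chaperone, and H2-Ke6, a hydroxysteroid dehydrogenase. GENCODE lists H2-K2 as a transcribed pseudogene and H2-Bl, H2-Q5, H2-T10 and H2-Ea-ps as polymorphic pseudogenes. They are kept in the class that their symbol gives.

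Each group had 3 samples of 2 frozen retinas, and libraries were made from 1 µg of total RNA with a directional kit. Both groups are labelled with the strain C57Bl6/J. In rd10 mice a recessive missense mutation hits Pde6b, a catalytic subunit of the phosphodiesterase of rods, and rods die in the first weeks after birth. Neither group received a treatment, and nothing in the labels says whether the 2 retinas came from 1 animal. The p-values therefore measure the spread between these samples. Libraries are called here by the names of their columns, WT-1, WT-4 and WT-23, and Rd10-3, Rd10-4 and Rd10-5, and values per library follow that order.

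Class I molecules sit on nearly all nucleated cells and present peptides made by the proteasome. TAP carries these peptides into the endoplasmic reticulum, where tapasin helps to load them on a heavy chain paired with beta-2 microglobulin. Class II molecules are made mainly by professional antigen presenting cells. They load peptides in endosomes, with the invariant chain Cd74 as their chaperone and with DM as the peptide editor, and CIITA is the main switch of their transcription. The healthy retina is an immune privileged tissue in which both classes are kept low, and microglia are its resident phagocytes.

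Depth was 13573035 to 15818918 assigned counts per WT library and 10923556 to 12171088 per rd10 library. Of the rod markers, all 11 were lower (median log2 fold change -2.09). Pde6b itself fell from 3231 to 758 CPM (log2 fold change -2.09 ± 0.20, adjusted p = 0.000726). The rd10 allele changes a codon, so this level does not check the genotype apart from the loss of rods. CPM is used here for counts scaled by the effective library size after TMM, in which the rd10 libraries had factors of 1.075 to 1.104 and the WT libraries 0.9016 to 0.9328. In whole retina, more cells of a type and more RNA per cell cannot be told apart.

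Class I heavy chain genes (H2-D1, H2-K1, H2-Q1, H2-Q4, H2-T23, H2-T24 and H2-M3), their light chain B2m, the transporter gene Tap1, the class II genes H2-Aa, H2-Ab1 and H2-Eb1, and Cd74 were called higher in rd10. In the edgeR quasi-likelihood test over 13905 genes, 13 of 19 tested members were higher at an adjusted p (Benjamini-Hochberg) under 0.05, 0 were lower and 6 did not pass. At an unadjusted p under 0.05 none of the 19 was lower either, and DESeq2 and limma voom likewise called none lower. With scaling factors taken from inner neuron genes, H2-Ke2 was called lower (log2 fold change -0.57, edgeR adjusted p = 0.0205). Across all tested genes, 14.4% changed, 7.12% upward and 7.32% downward. Values in the 3 rd10 libraries all lay above those in the 3 WT libraries for 15 of the 19 members, against 17.1% of all tested genes. The median log2 fold change was 1.69 in the tested members and -0.04 in all tested genes.

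These counts need the filter on low values beside them. A gene was tested when 3 or more libraries held at least 0.777 CPM, equal to 10 counts at the median depth. Of the 19 tested members, 4 had no WT library over that line, passed only through the rd10 libraries and so had to be higher there: H2-Q1, H2-T24, H2-Aa and H2-Eb1. H2-Ab1 and Cd74 had 2 WT libraries over it. The other 13 passed in all 3 WT libraries, and 7 of these were called higher. A further 16 members had counts but were not tested, and 15 had 0 counts in every library. A count of 0 over all 6 libraries allows up to 0.0379 CPM (3 counts), for counting error only.

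**Figure D1:**
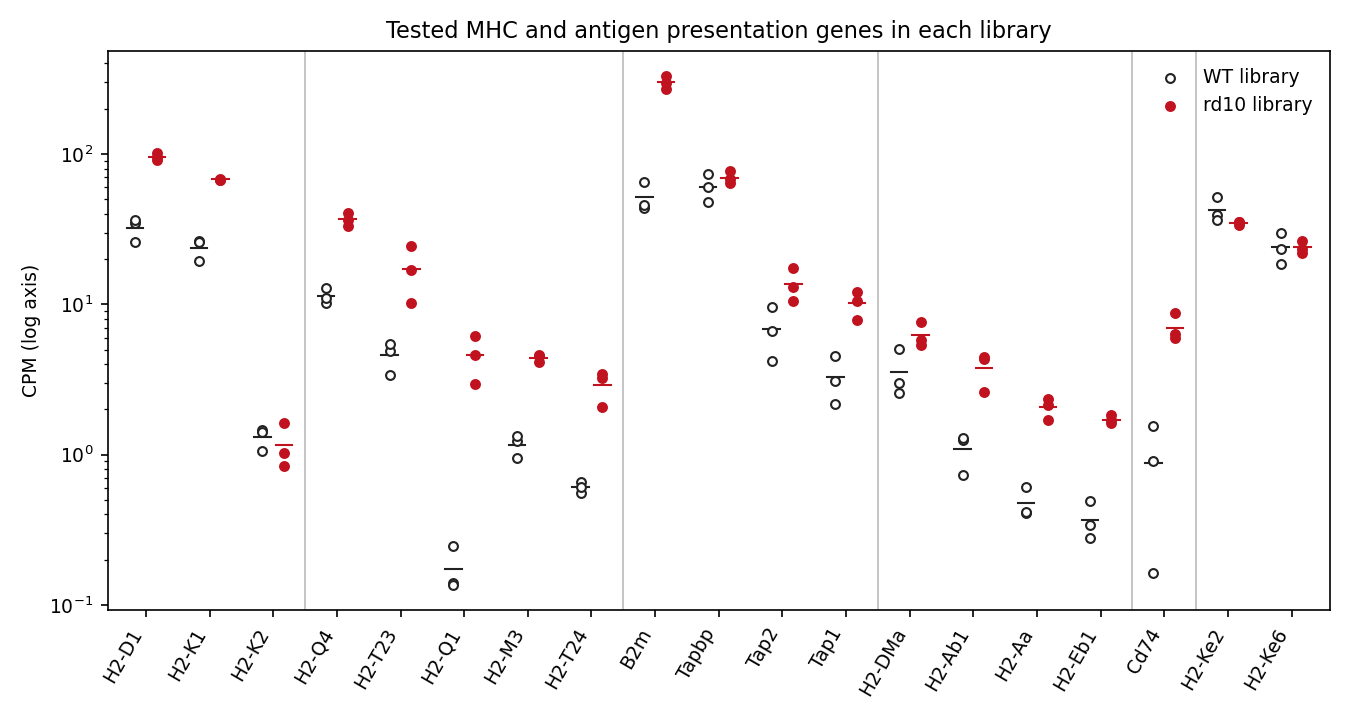
CPM (log axis) of the 19 tested members in each library, grouped by role; open circles are WT libraries, filled circles rd10 libraries, and horizontal lines group means (3 libraries each). For 15 genes every rd10 point lies above every WT point; H2-K2, Tapbp, H2-Ke2 and H2-Ke6 are the exceptions.

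Among the classical class I genes, which present peptides to CD8 T cells, H2-D1 and H2-K1 rose to nearly the same extent. H2-D1 had 426, 519 and 381 counts across WT, against 1316, 1069 and 1254 across rd10. All rd10 values lay far above the highest WT value, with no overlap. This was a rise from 32.3 ± 5.61 to 95.8 ± 4.98 CPM (SD, n = 3 each), a log2 fold change of 1.57 ± 0.15 (standard error, SE; adjusted p by edgeR = 0.000738). H2-K1 had 321, 371 and 287 counts across WT, against 888, 790 and 888 across rd10. The rd10 libraries were almost level once scaled, at 67.3 to 68.2 CPM. H2-K1 rose by 1.51 ± 0.14 on the log2 scale (edgeR adjusted p = 0.000726). The log2 ratio of H2-K1 to H2-D1 stood at -0.43 ± 0.04 for WT and at -0.50 ± 0.07 for rd10 (SD, n = 3), and the groups overlapped.

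The pseudogene H2-K2 was not called. It had 13, 21 and 21 counts across WT, against 21, 12 and 11 across rd10, so the groups overlapped (log2 fold change -0.19 ± 0.34, edgeR adjusted p = 0.745). With library size alone as the scaling its sign turned, to 0.05. H2-L had 3, 7 and 9 counts across WT, against 20, 6 and 9 across rd10, and was too low to be tested.

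The non-classical class I genes hold specialised molecules with few alleles. H2-Q4, a Qa-family heavy chain, had 125, 158 and 189 counts across WT, against 472, 474 and 438 across rd10. Its groups were well apart, and it rose by 1.69 ± 0.15 on the log2 scale (edgeR adjusted p = 0.000562). H2-T23, which encodes Qa-1, the ligand of the CD94/NKG2 receptors of NK cells, had 60, 78 and 50 counts across WT, against 318, 198 and 135 across rd10. It rose by 1.91 ± 0.33 (edgeR adjusted p = 0.00776), and its rd10 libraries were unequal, with 24.4 CPM in Rd10-3, 16.9 in Rd10-4 and 10.3 in Rd10-5. H2-M3, which presents N-formylated peptides, had 15, 19 and 14 counts across WT, against 54, 53 and 60 across rd10. The rd10 libraries agreed closely, and the log2 fold change was 1.91 ± 0.23 (edgeR adjusted p = 0.00166).

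H2-Q1 had the largest fitted fold change of the 19 tested members. It had 3, 2 and 2 counts across WT, against 60, 72 and 39 across rd10. All 3 WT libraries were near the limit of detection while every rd10 library was well above it. The fitted log2 fold change was 4.67 ± 0.45 (edgeR adjusted p = 0.000722), a 25.5-fold difference whose size rests on those 7 WT counts. H2-T24 went from 8, 8 and 9 counts to 27, 38 and 45 (log2 fold change 2.25 ± 0.31, edgeR adjusted p = 0.00304). Both passed the filter through the rd10 libraries.

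Class I copies resemble each other, and reads that fit several of them may be lost or shared out in counting. Of the 50-base words in the GENCODE M21 transcripts of each gene, 12.8% of those of H2-D1 also occurred in another gene, as did 9.63% for H2-K1, 15.0% for H2-Q1, 21.8% for H2-Q4 and 13.6% for H2-T23. H2-M3 had 0.576% and B2m none. The rise was therefore also present in genes with almost no shared sequence, and the levels of single Q and T genes are uncertain to the extent of these shares. H2-Q6 and H2-Q7, with 32.0% and 26.4%, had 0 counts in all libraries. For H2-Q8, H2-Q9, H2-T9 and H2-L no gene model was matched.

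Below the filter, H2-T10 had 1, 7 and 2 counts across WT, against 9, 23 and 32 across rd10, without overlap. Its near copy H2-T22 had 3, 11 and 4 counts across WT, against 21, 8 and 16 across rd10, and the groups overlapped. Of the words of H2-T10, 32.9% were shared, most often with H2-T22, so these 2 genes cannot be read apart with certainty. H2-Q2 had 1, 3 and 1 counts across WT, against 4, 4 and 10 across rd10. H2-Q5 had 3, 1 and 7 across WT, against 10, 5 and 9 across rd10. H2-Q10, whose product is secreted by the liver, stayed at 1 or 2 counts in every library, and H2-Bl, H2-M2, H2-M5 and H2-M11 never exceeded 2 counts. The remaining 14 class I genes, including H2-T3, H2-M1, H2-M9 and the 6 genes of the H2-M10 family, had no count in any library.

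The light chain B2m, shared by all class I molecules, rose further than the classical heavy chains. It had 535, 931 and 670 counts across WT, against 4287, 3181 and 3890 across rd10. The lowest rd10 library lay far above the highest WT library. B2m went from 51.3 ± 11.7 to 299 ± 29.1 CPM (SD, n = 3), a log2 fold change of 2.54 ± 0.18 (edgeR adjusted p = 0.000398). The log2 ratio of B2m to H2-D1 was 0.33, 0.84 and 0.81 across WT and 1.70, 1.57 and 1.63 across rd10. The ratio was thus higher in rd10 by 0.98 ± 0.17 (SE), and by 1.04 ± 0.20 for B2m to H2-K1, without overlap in either. These pairs were among 10 picked after the values had been seen, and no test was run on them.

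The loading genes were unequal. Tap1, the first subunit of the peptide transporter, had 38, 65 and 32 counts across WT, against 137, 142 and 104 across rd10 and rose by 1.63 ± 0.29 on the log2 scale (edgeR adjusted p = 0.00898). Its partner subunit Tap2 had 117, 95 and 62 counts across WT, against 171, 203 and 139 across rd10. The Tap2 groups did not overlap, but the log2 fold change of 1.01 ± 0.31 missed the threshold (edgeR adjusted p = 0.0666). Some alternatives called it, among them DESeq2 (adjusted p = 0.0126) and the edgeR fit without WT-1 (log2 fold change 1.33, adjusted p = 0.00937). Tapbp, the tapasin gene, had 903, 866 and 705 counts across WT, against 881, 898 and 840 across rd10, and the groups overlapped in CPM (log2 fold change 0.19 ± 0.17, edgeR adjusted p = 0.488). The log2 ratio of H2-D1 to Tapbp moved from -0.90 ± 0.17 to 0.47 ± 0.19 (SD, n = 3), with no overlap.

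The class II chains rested on few counts in both groups. H2-Ab1, the beta chain of the A molecule, had 9, 18 and 19 counts across WT, against 34, 52 and 57 across rd10. H2-Aa, its alpha chain, had 5, 6 and 9 counts across WT, against 22, 25 and 31 across rd10. Neither gene's groups overlapped, but H2-Aa had no WT library over the filter and so had to be higher. The log2 fold changes were 1.77 ± 0.33 for H2-Ab1 (edgeR adjusted p = 0.00965) and 2.07 ± 0.32 for H2-Aa (adjusted p = 0.00464). The log2 ratio of the 2 chains, H2-Aa to H2-Ab1, stood at -0.96 ± 0.32 for WT and at -0.81 ± 0.21 for rd10 (SD, n = 3), with overlap.

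H2-Eb1, the beta chain of the E molecule, had 6, 4 and 5 counts across WT, against 22, 19 and 24 across rd10, a log2 fold change of 2.20 ± 0.33 (edgeR adjusted p = 0.0041). It had no WT library over the filter, so its rd10 values had to be higher. H2-Ea-ps, the alpha chain of the E molecule and a pseudogene in C57Bl6/J, had no count in any WT library and 8, 12 and 10 counts in rd10. Against a floor of 3 counts over the WT group this was at least 10.9-fold higher, from a gene too low to be tested. Whether the groups carry the same alleles of the H2 genes was not tested.

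Of the peptide editor genes of the class II pathway, H2-DMa alone was tested, and it was not called. H2-DMa had 62, 43 and 38 counts across WT, against 75, 89 and 70 across rd10. Scaled, the WT libraries held 5.07, 2.995 and 2.58 CPM and the rd10 libraries 5.76, 7.58 and 5.33, so WT-1 came close to Rd10-5 without overlap. The log2 fold change of 0.82 ± 0.29 did not pass (edgeR adjusted p = 0.104), and did without WT-1 (1.15, adjusted p = 0.0139). H2-DMb1 had 9, 3 and 5 counts across WT, against 5, 11 and 6 across rd10. H2-DMb2 had 1, 0 and 0 across WT, against 0, 6 and 2 across rd10, and both genes were too low to be tested. H2-Oa and H2-Ob, the chains of the DO inhibitor of DM, had at most 9 counts in a library, and H2-Eb2 had none.

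Cd74, the invariant chain, had 2, 13 and 23 counts across WT, against 82, 102 and 78 across rd10. The WT libraries were spread from 0.164 to 1.56 CPM, all below the rd10 libraries at 5.94 to 8.69. The log2 fold change was 2.93 ± 0.50 (edgeR adjusted p = 0.00676) and 3.64 without WT-23. The ratio of Cd74 to H2-Ab1 was higher in rd10 by 1.42 ± 0.56 on the log2 scale, with WT libraries from -1.49 to 0.25 and rd10 libraries from 0.44 to 1.22. Ciita, the switch of class II transcription, had 2 counts in each WT library and 1, 2 and 1 in rd10. At that depth no difference in Ciita was detectable.

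**Figure D2:**
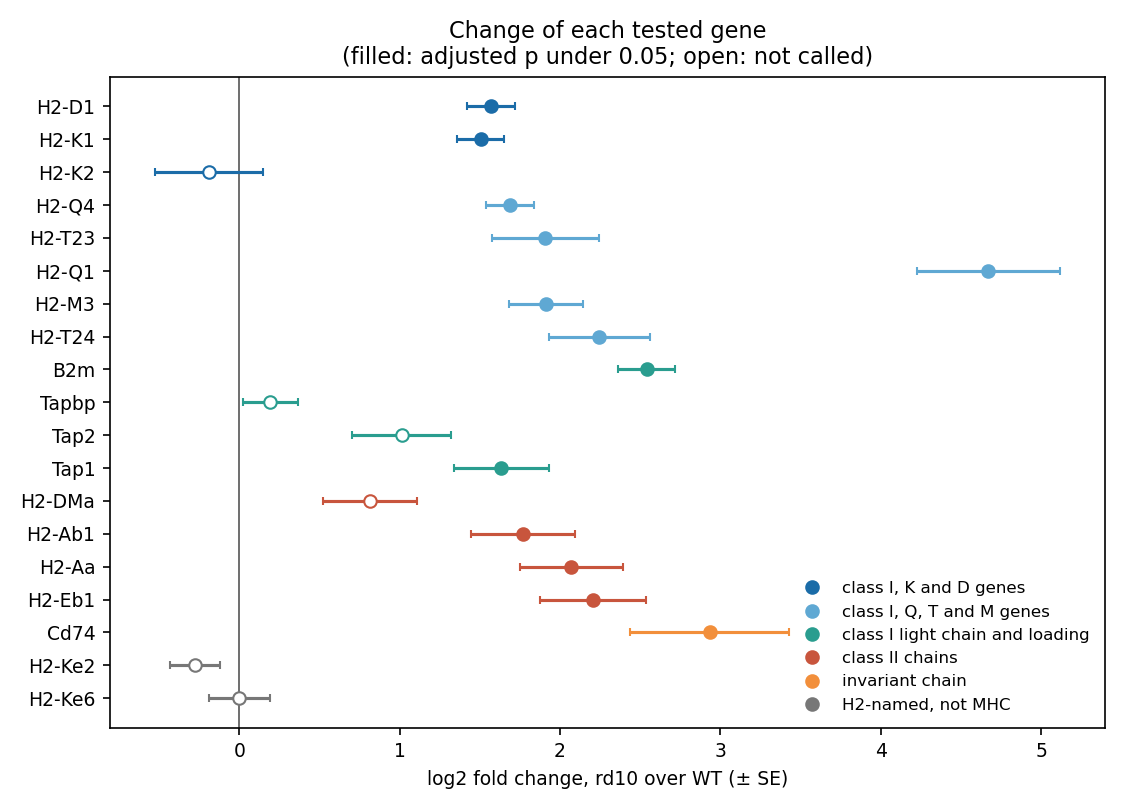
Log2 fold change (rd10 over WT) of the 19 tested members with its standard error, coloured by role; filled symbols had an adjusted p under 0.05. H2-Q1 lies farthest to the right at 4.67, Cd74 and B2m follow at 2.93 and 2.54, and H2-K2, Tapbp, H2-Ke2 and H2-Ke6 lie near 0.

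Set against each other over all their genes, the 2 classes rose by amounts that could not be told apart. Summed over all 32 class I genes, tested or not, CPM went from 77.0 ± 9.44 to 235.5 ± 11.5, 3.06 times. Summed over all 10 class II genes it went from 6.34 ± 1.45 to 16.1 ± 2.61, 2.54 times (SD, n = 3). The log2 ratio of the class I sum to the class II sum was 3.33, 3.93 and 3.59 across WT and 4.17, 3.63 and 3.84 across rd10. The groups overlapped, and the mean shift was 0.26 ± 0.23 (SE). The class II sum leans on the uncalled H2-DMa, which held 3.55 CPM in WT and 6.22 in rd10. In mean log2 CPM the 3 tested A and E chains rose by 1.78 ± 0.15 (SE). H2-K1 and H2-D1 rose by 1.55 ± 0.15. Of the A and E chains, H2-Aa and H2-Eb1 had no WT library over the filter and so had to be higher.

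Of 8 tested class I heavy chain genes 7 were called higher, and of 4 tested class II genes 3, with median log2 fold changes of 1.80 and 1.92. Because of the filter these counts and medians are a description only. Of the 6 class I heavy chain genes that passed the filter in all WT libraries 5 were called, and H2-DMa, the only such class II gene, was not. The median of class I minus that of class II was -0.12, and with 1 library left out it ran from -0.46 (without Rd10-3) to 0.02 (without WT-1).

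In mean log2 CPM of the tested genes, class I stood at 1.83, 1.85 and 1.64 across WT and 3.61, 3.61 and 3.35 across rd10. Class II stood at 0.18, 0.03 and 0.14 and at 1.45, 1.79 and 1.73. Both means include genes that passed through rd10, so their rises are not independent of the filter. Class I minus class II stood at 1.66 ± 0.16 for WT and at 1.87 ± 0.28 for rd10 (SD, n = 3), with overlap, a shift of 0.21 ± 0.18 (SE) and of opposite sign to the median.

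The shift depended on which class I genes were taken. With the 3 classical genes it was -0.58 ± 0.23, and the groups did not overlap, at 3.19, 3.50 and 3.08 across WT and 3.08, 2.48 and 2.48 across rd10. That mean includes the pseudogene H2-K2. With H2-K1 and H2-D1 alone the shift was 0.01 ± 0.21, with overlap. With the 5 tested non-classical genes, of which H2-Q1 and H2-T24 had no WT library over the filter, it was 0.68 ± 0.17, without overlap.

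**Figure D3:**
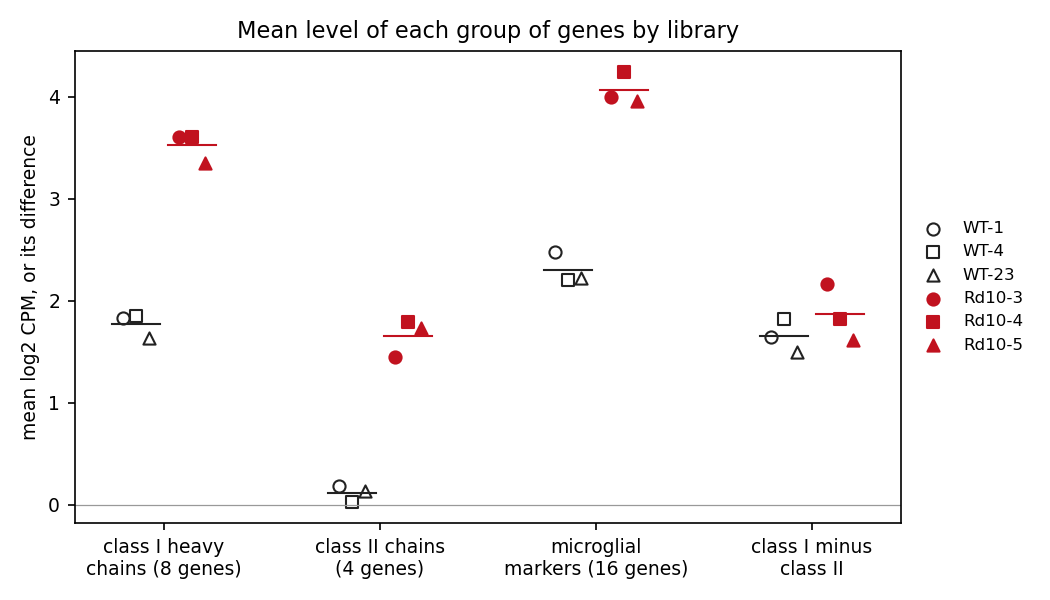
Mean log2 CPM of the 8 tested class I heavy chains, the 4 tested class II chains and 16 microglial markers, and the class I minus class II difference, in each library (horizontal lines are group means). All 3 gene groups are higher in every rd10 library, while the difference between classes, over these genes, overlaps between WT and rd10.

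Between genes, levels per length were compared in FPKM from the authors' deposited table, which lists 12 members as 1 value per group. In that table B2m had 31.4 FPKM in WT and 182.6 in rd10, H2-D1 27.7 and 82.3, and H2-Q4 10.3 and 33.3. H2-K1 followed at 7.1 and 20.0 and H2-T23 at 2.6 and 9.8. Class II chains in the authors' deposited table reached 3.6 FPKM for H2-DMa, 3.5 for H2-Ab1 and 2.2 for H2-Eb1 in rd10, and Cd74 reached 4.9. The authors' deposited table gives log2 fold changes of 2.54 for B2m, 1.57 for H2-D1 and 2.95 for Cd74, and lists Tap2 and H2-DMa with unadjusted p-values of 0.00279 and 0.0131. The order of H2-Q4 and H2-K1, and the distance between B2m and H2-D1, rest on the gene model. Per kilobase of GENCODE exon, H2-K1 was above H2-Q4, with 8.12 ± 1.30 and 4.37 ± 0.513 CPM per kilobase in WT (SD, n = 3). On that scale B2m stood at 59.7 ± 13.6 and H2-D1 at 12.5 ± 2.18 in WT.

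Most members are neighbours. The H2 region, taken from the first to the last H2- gene of the annotation, spans chr17:33938821-37483552 in GRCm38, or 3.545 Mb. It holds 16 tested members, 11 of them called higher, and 86 other tested genes, whose median log2 fold change was -0.02. Of those others 10 were called higher and 6 lower. Over all tested genes 7.12% were higher and 7.32% lower. Among the 11 members, H2-Q1, H2-T24, H2-Aa and H2-Eb1 had no WT library over the filter and so had to be higher. The other genes called higher included the complement genes C4b (log2 fold change 4.58), C4a (5.48) and Cfb (4.44, and 5.04 without WT-4). They also included the immunoproteasome gene Psmb8, the class I-like gene model Gm11127 (1.97) and the myeloid genes Aif1 and Lst1. Psmb9, another immunoproteasome gene, was called as well (1.84, edgeR adjusted p = 0.0308), stood at 2.61 without WT-1 and was no longer called when WT-4 or any single rd10 library was left out (adjusted p from 0.0634 to 0.126). Clic1 lost its call without WT-4 (adjusted p = 0.0571). C4a and C4b are near copies, so the split of their reads is uncertain. The heat shock genes Hspa1a and Hspa1b, also near copies, were lower (-1.20 and -1.63). The loci of B2m, Cd74 and Ciita lie on other chromosomes.

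**Figure D4:**
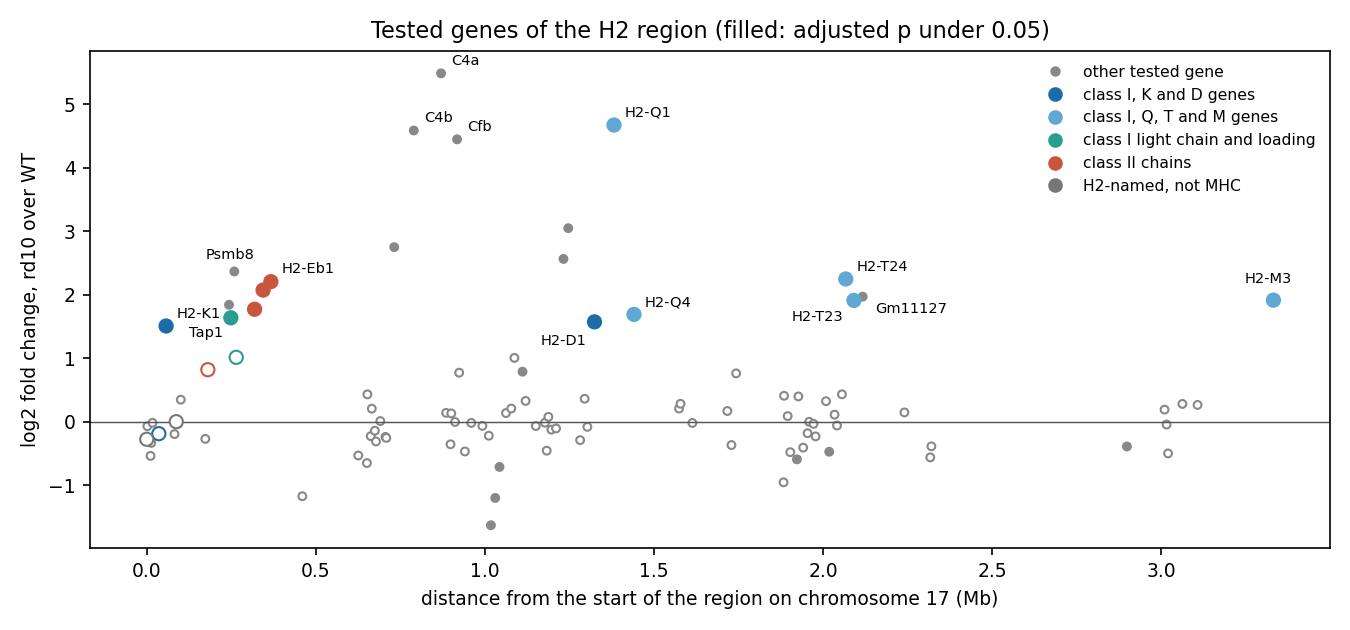
Log2 fold change of the tested genes of the H2 region against distance from its start (Mb); coloured symbols are members by role, grey ones other genes, and filled symbols had an adjusted p under 0.05. Members near both ends of the region, such as H2-K1 and H2-M3, are higher in rd10 among neighbours that mostly lie near 0. H2-Ke2 and H2-K2, at the left end, are not higher.

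Promoter sequences are shown for 5 genes that rose, because class I and class II promoters differ in the elements they carry. Class I promoters are known to join an NF-kB site and an interferon-stimulated response element upstream of a shared module, and class II promoters to hold that module, the SXY module of an X box and a CCAAT-type Y box, bound by RFX, CREB and NF-Y. The sequences are the 250 bases before the RefSeq start in GRCm38.p6, read 5′ to 3′ on the gene's strand. Windows are chr17:34000348-34000597 (minus strand) for H2-K1, chr17:35379367-35379616 (plus) for H2-Q4 and chr2:122147437-122147686 (plus) for B2m. They are chr17:34287824-34288073 (minus) for H2-Aa and chr17:34305617-34305866 (plus) for H2-Eb1. Capitals mark matches, on either strand, to GAANNGAAA or GAAANNGAA (interferon response type) and GGGATTNCC (NF-kB type). They also mark, on either strand, TGACG (CREB type, as in the X box) and CCAAT (as in the Y box). Matches may overlap.
H2-K1: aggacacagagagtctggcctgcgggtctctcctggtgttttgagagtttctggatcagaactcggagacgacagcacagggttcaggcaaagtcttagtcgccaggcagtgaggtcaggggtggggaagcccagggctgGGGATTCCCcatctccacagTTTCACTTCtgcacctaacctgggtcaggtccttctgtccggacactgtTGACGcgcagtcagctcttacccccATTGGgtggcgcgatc
H2-Q4: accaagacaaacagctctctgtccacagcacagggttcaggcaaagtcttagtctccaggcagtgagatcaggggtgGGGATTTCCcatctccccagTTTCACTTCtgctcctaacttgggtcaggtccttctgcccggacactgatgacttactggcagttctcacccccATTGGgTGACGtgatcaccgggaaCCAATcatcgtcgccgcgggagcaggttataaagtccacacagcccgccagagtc
B2m: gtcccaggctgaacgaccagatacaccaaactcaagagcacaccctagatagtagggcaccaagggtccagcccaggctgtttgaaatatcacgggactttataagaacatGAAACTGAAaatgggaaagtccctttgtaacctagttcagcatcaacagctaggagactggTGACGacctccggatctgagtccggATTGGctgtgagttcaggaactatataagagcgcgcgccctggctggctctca
H2-Aa: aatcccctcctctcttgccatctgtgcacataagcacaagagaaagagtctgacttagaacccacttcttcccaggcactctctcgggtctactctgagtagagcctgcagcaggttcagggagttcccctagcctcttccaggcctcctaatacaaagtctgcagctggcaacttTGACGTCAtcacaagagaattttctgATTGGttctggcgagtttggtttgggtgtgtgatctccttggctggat
H2-Eb1: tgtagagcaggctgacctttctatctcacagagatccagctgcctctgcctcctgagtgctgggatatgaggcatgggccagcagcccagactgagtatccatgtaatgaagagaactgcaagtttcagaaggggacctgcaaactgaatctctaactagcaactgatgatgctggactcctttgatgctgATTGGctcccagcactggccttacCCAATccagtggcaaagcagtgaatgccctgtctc

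In H2-K1 the NF-kB type match lies at -110 to -102 and the interferon type match at -90 to -82, counted from the base before the start as -1. In H2-Q4 they lie at -173 to -165 and at -153 to -145, with the same spacing. B2m holds an interferon type match at -139 to -131, and the windows of H2-Aa and H2-Eb1 hold neither spelling. The TGACG match of H2-Q4, at -73 to -69, lies downstream of its ATTGG match at -79 to -75. A match of spelling alone does not place a stretch in an X or Y box. The interferon type was found in all 5 called class I heavy chain genes with a promoter entry and in 0 of 2 called class II genes, against 12.6% of 27025 promoters. The NF-kB type was in 3 of 5 and 0 of 2, against 0.855%. CCAAT was in all 5 and in both, against 34.5%, and TGACG in 4 of 5 and 1 of 2, against 17.9%. Over the 34 members with an entry, the 4 kinds of match were found in 11, 5, 30 and 14, in that order. The spellings were adjusted after the member promoters had been read, so these shares are a description fitted to the members and support nothing. Tap1 and Psmb9, which start 226 bases apart on opposite strands, share the space between them.

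The genes that serve class I presentation changed in part. Of 14 partner genes tested, 8 were higher and 0 lower, with a median log2 fold change of 0.73 against -0.04 over all tested genes. Among all tested genes, 7.12% were higher. Nlrc5, among the 8, had no WT library over the filter and so had to be higher. Psmb8, a catalytic subunit of the immunoproteasome, rose from 3.08 to 15.8 CPM (log2 fold change 2.36 ± 0.31, edgeR adjusted p = 0.00238). Irf1, a transcription factor of interferon responses, rose by 1.25 ± 0.21 (adjusted p = 0.00683). The proteasome activator Psme1 (0.69, adjusted p = 0.0131), the tapasin-related Tapbpl (0.86, adjusted p = 0.0141) and the peptide trimming enzyme Erap1 (0.77, adjusted p = 0.0227) rose by less. These 3 calls were lost without Rd10-3, where 2 of the 14 were called. The count was 4 without Rd10-4 or without WT-4, 5 without Rd10-5 and 5 with inner neuron factors, and with other settings it reached 9. The chaperones Calr, Canx and Pdia3 had log2 fold changes of -0.10, -0.14 and 0.15 and were not called.

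The class II partners were split. Of 17 tested, 6 were higher and 3 lower (7.12% and 7.32% over all tested genes), with a median of 0.06. With inner neuron factors 4 were higher and 7 lower, and the median was below 0 (-0.235). It was also below 0 without Rd10-4 (-0.123), without WT-23 (-0.009) and without WT-4 (-0.001). Ctss, the cathepsin that trims the invariant chain in antigen presenting cells, rose from 27.5 to 88.5 CPM (log2 fold change 1.68 ± 0.16, edgeR adjusted p = 0.000726). Ifi30, a lysosomal thiol reductase, rose by 1.41 ± 0.18 (adjusted p = 0.00207), and the co-stimulatory gene Cd86 went from 4, 1 and 6 counts to 23, 25 and 36. Cd86 was called, but had no WT library over the filter and so had to be higher. March1, a ubiquitin ligase that removes class II molecules from the surface, fell by 1.03 on the log2 scale (SE 0.16, adjusted p = 0.0047). Nfya, a subunit of the CCAAT-binding factor NF-Y, fell by 0.90 (SE 0.11, adjusted p = 0.00193). Rfx5, Rfxap and Rfxank, the subunits of RFX, had log2 fold changes of 0.11, 0.27 and 0.06 and were not called.

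Interferon-responsive genes were higher in the same libraries. In the list of interferon gamma signalling 10 of 16 tested genes were higher and 0 lower (median 1.29), led by the guanylate binding protein Gbp2 (log2 fold change 2.52 ± 0.18, edgeR adjusted p = 0.000398) and followed by the immunity-related GTPase Irgm1 (1.72 ± 0.27, adjusted p = 0.00508), Gbp7 (1.33 ± 0.22, adjusted p = 0.0062) and Irf1. The chemokine Cxcl10 was called too, from 0.0499 to 1.197 CPM, with no WT library over the filter. Among type I interferon response genes 15 of 20 were higher and 0 lower (median 1.66), while 7.12% of all tested genes were higher. Of the 15, Oas1a had no WT library over the filter and so had to be higher. The 5 with the smallest p were Ifitm3 (log2 fold change 2.21), Bst2 (2.03), Ifit1 (3.04), Oasl2 (2.36) and Isg15 (3.03). Their edgeR adjusted p ran from 0.00056 to 0.00434. Ifng and Ifnb1 had 0 counts in every library, below the floor of 3 counts. All 15 called type I response genes were highest in Rd10-3, and the list's summed CPM was 683.5 there against 425.6 in Rd10-4 and 439.5 in Rd10-5. H2-T23 was highest in Rd10-3 too, and summed class I heavy chain CPM was 247.3 there, 234.7 in Rd10-4 and 224.4 in Rd10-5. B2m was also highest in Rd10-3, and Tap1 in Rd10-4. Of the 7 called class I heavy chains 3 were highest in Rd10-3, 2 in Rd10-4 and 2 in Rd10-5, with H2-K1 almost level. A shared cause was not tested. Without Rd10-3, 11 type I response genes and all 13 called members still passed.

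Markers of some other cells moved with the members, and their part in the result was not tested. Among all tested genes, 7.12% were higher and 7.32% lower. Of 16 microglial markers 15 were higher and 0 lower (median 1.74), with summed CPM of 126.3 to 141.7 in WT and 387.5 to 491.8 in rd10. Examples are Fcrls (log2 fold change 2.95), Itgam (2.12) and Tyrobp (2.24). Mean log2 CPM of class I minus that of microglial markers stood at -0.53 ± 0.15 for WT and at -0.54 ± 0.13 for rd10 (SD, n = 3). For class II it was -2.18 ± 0.11 and -2.41 ± 0.17, and in both cases the groups overlapped. Both class means include genes with no WT library over the filter, so these differences depend on which genes are taken. The 6 class I genes over the filter in all WT libraries rose by 1.365 ± 0.135 in mean log2 CPM. The microglial markers rose by 1.764 ± 0.125 (SE). Mueller glia markers were higher for 7 of 10 genes (median 0.71), but for 3 without WT-4, 4 without Rd10-3 and 4 with inner neuron factors. Monocyte and macrophage markers were higher for 5 of 8, but for 3 without WT-4. Of the 5, Ms4a7 and Mrc1 had no WT library over the filter and so had to be higher. Astrocyte markers were higher for 3 of 4, and endothelial markers for 2 of 10, or 1 without WT-4. Of 14 inner neuron markers 2 were higher, 8 without WT-1, 0 without Rd10-3 or without WT-4, 9 with the GC trend removed and 10 with library size alone. Of 7 pericyte markers 0 were called, against 2 without WT-1 and 3 with the GC trend removed. Of 7 pigment epithelium markers 2 were lower, or 1 without WT-4. The 1 tested neutrophil gene, Csf3r, was higher. Of the untested ones, S100a8 had 7 counts over the WT libraries and 0 over rd10, S100a9 had 2 and 2, and Mpo and Elane had none. The 1 tested blood gene was not called.

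Most markers of lymphocytes were at or near 0, with exceptions. Over the 3 libraries of a group, Cd3e had 0 counts in WT and 1 in rd10, Cd3d 1 and 1, Cd3g 0 and 10, and Cd8b1 0 and 2. Cd4 had 6 and 18, and Cd8a had 13, 12 and 12 counts across WT against 15, 18 and 17 across rd10, without overlap in CPM (log2 fold change 0.55 ± 0.29, edgeR adjusted p = 0.244). Of the T cell list Lck alone was called of 2 tested genes (log2 fold change 1.48, edgeR adjusted p = 0.0239), and lost the call without Rd10-3, without Rd10-5 and without WT-4, with adjusted p from 0.084 to 0.107. Summed CPM of the 10 T cell genes was 1.80 to 2.37 in WT and 4.18 to 5.07 in rd10. Of the B cell list Ms4a1 had 0 and 1 counts and Pax5 none, while Cd22 had 0, 1 and 3 counts across WT against 16, 21 and 14 across rd10. Cd22 was called, with no WT library over the filter. NK cell genes were all under the filter, with at most 0.837 CPM in sum. Among dendritic cell genes Itgax, which activated microglia also express, was called, from 0.123 to 3.004 CPM with no WT library over the filter, while Flt3 and Zbtb46 were not, and Clec9a, Cd209a and Ccr7 had 0 counts.

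Of 4 tested MHC-like genes outside the H2 region, Mr1, which presents vitamin B metabolites, was the one called (log2 fold change 0.84 ± 0.16, edgeR adjusted p = 0.00988), though not without Rd10-3 (adjusted p = 0.0648). Cd1d1, Fcgrt and Hfe had log2 fold changes of 0.59, 0.75 and 0.12. The 2 H2-named genes that encode no MHC molecule were not called either. H2-Ke2 had a log2 fold change of -0.28 ± 0.16 (edgeR adjusted p = 0.268) although its groups did not overlap, with WT higher. H2-Ke6 was level at 23.9 CPM in both groups, and 70.5% of its words were shared with another gene model.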

How the data were processed

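The 6 libraries of whole mouse retina were used. The deposited count table holds raw counts per gene; the authors' deposited table of selected genes holds FPKM, a log2 fold change and a p-value per gene, as 1 value per group. HTSeq, edgeR and TopHat2 2.1.0 are named with mm10 in the submitters' processing notes. For the annotation, the strand setting and the handling of reads that map to several copies, nothing is given in the sources used here. A table of selected inner nuclear layer genes held no member and was not used. Columns match the group of a sample but not its replicate number.

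The counts were tested with edgeR 4.0.16 in R 4.3.3 (TMM, filterByExpr, robust quasi-likelihood fit, genotype as the single term, Benjamini-Hochberg over 13905 genes, threshold 0.05, two-sided). The procedure was also run on counts simulated from the means and dispersions of these data, with changes of random direction. That run cannot show how the scaling acts when rods are lost. SE is the log2 fold change over the square root of F. Mean log2 CPM used a prior count of 2. Limma 3.58.1 and DESeq2 1.42.0 were alternatives. Within groups, no pair of libraries agreed to within sampling noise (chi-square per degree of freedom 7.364 to 57.81). Positions, exon lengths and shared words come from GENCODE M21 on GRCm38, and 46 of 50 members matched; promoters come from RefSeq (GRCm38.p6), with 34 members matched.

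Every tested member was named. From each pathway list up to 5 called genes with the smallest p were to be named, and up to 3 from each marker list; some marker lists are given by counts alone. The chaperones, the RFX subunits, Cd4, Cd8a, the genes at or near 0 counts and the other genes of the H2 region were named after their values were seen. Members and lists were chosen with earlier results of these data known, and the motif spellings and ratio pairs were chosen after their values had been seen. Some genes of the lists are not reported here by name.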

Additional observations from a re-analysis of the deposited data

How the results depend on the processing

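All 13 called members kept their direction and call in each of 17 alternatives (scaling, filter, test, GC trend, threshold, and each library left out); the counts of called class I and class II genes stayed at 7 and at 3 or 4. The number of genes called in all moved more, from 2008 (49.3% higher) to 3043 (81.2% higher) with library size alone, 4137 (14.7%) with inner neuron factors, 4666 with a GC trend removed, 1285 against a fold of 1.2 and 881 at an adjusted p under 0.01; upper quartile factors gave 63.3% higher. With 1 library left out it ran from 885 (without Rd10-3) to 3214 (without WT-1), with 952 without WT-4. The cause was not tested. The median of all genes was -0.04, 0.20 with library size alone and -0.34 with inner neuron factors; relative to it the members' rises remain. Among uncalled members, H2-K2 turned to 0.048 with library size alone, Tapbp to -0.101 with inner neuron factors, and H2-Ke6, at 0 in effect, to 0.018 (RLE factors), 0.093 (upper quartile), 0.242 (library size), 0.030 (no filter), 0.001 (1 CPM filter), 0.026 (limma voom), 0.012 (DESeq2), and between -0.13 and 0.187 with 1 library left out (positive in 4 cases, 0.003, 0.019, 0.055 and 0.187). Tap2 was also called with upper quartile factors, library size and the GC trend removed, and H2-DMa with the last 2. Class I minus class II ranged from -0.458 to 0.016 in medians and from 0.062 to 0.334 in means over the libraries left out; with classical class I genes alone they were -0.415 and -0.575, and without the Q and T families -0.383 and -0.366. Added after seeing the data, the difference of means was 0.538 (SE 0.317, groups overlapping) over genes that passed the filter in all WT libraries. There, 6 class I genes stood against H2-DMa alone. For H2-K1 and H2-D1 against the tested class II genes the difference of means was 0.006. The log2 ratio of summed CPM, all class I over all class II genes, shifted by 0.261. No paired analysis was possible because the column names carry no replicate number of the labels. Depth limits the class II, Q and T genes with under 10 counts per library.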
